A study of Homo sapiens with 14 samples.

Results

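Small nucleolar RNA (snoRNA) host genes that make long noncoding RNAs (lncRNAs) were followed through the long-term culture (LTC) of SW620 cells. The 10 genes, GAS5, ZFAS1, SNHG1, SNHG5, SNHG6, SNHG12, DANCR, SNHG8, SNHG15 and EPB41L4A-AS1, were taken by symbol, and 10 of 10 were found among the 36601 genes of the single-cell matrices and among the 60624 genes kept from the bulk tables. SW620 is a colorectal cancer line grown from a metastasis, and SW480 came from the primary tumour of the same patient. The SW620-FLAG cells (labelled SW620) carried the FLAG control vector, and the SW620-TET2CD cells carried the catalytic domain of TET2, an enzyme that oxidises methylated cytosine in DNA. Both lines were grown without passage, and single-cell RNA-seq was read on days 6, 9, 12 and 15, with 1 library for each line and day. Bulk RNA-seq was read on day 6 from whole SW480 and SW620 cultures, and on day 15 from cells inside and outside the colonies of SW620-FLAG and SW620-TET2CD, parted with a cell strainer, again with 1 library each. TET2CD is the catalytic domain alone, put into the cells on a vector, and so differs from the cell's own full-length TET2. Days 6 and 9 are called early and days 12 and 15 late, as 4 libraries against 4. With 1 library per line and day, the p-values measure the spread between these libraries and not between repeated cultures of the same line and day.

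The introns of these genes hold snoRNAs, which guide chemical changes on ribosomal and other RNAs, box C/D snoRNAs with fibrillarin for ribose methylation and box H/ACA snoRNAs with dyskerin for pseudouridylation. The spliced exons leave the nucleus as a lncRNA, and for several hosts, GAS5 among them, this RNA binds ribosomes and is destroyed by nonsense-mediated decay, so that it builds up when growth and translation slow. GAS5 was named for its rise in growth-arrested cells, and many hosts begin, like ribosomal protein mRNAs, with a run of pyrimidines at the 5′ end, the 5′-terminal oligopyrimidine (5′TOP) feature. The 3′ single-cell libraries prime on poly(A) tails, so the values below are those of the host RNA and not of its snoRNAs.

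Positions below are those of the GENCODE annotation, and the snoRNAs inside each gene are from the RefSeq gene table. GAS5 on chromosome 1 (chr1:173858559-173868882, minus strand, GRCh38) holds 11 snoRNAs, 10 of them of the box C/D type and 1 of the H/ACA type. SNHG1 on chromosome 11 (chr11:62851978-62855953, minus) holds 8 named box C/D snoRNAs, ZFAS1 on chromosome 20 (chr20:49278178-49299600, plus) holds 3, SNORD12, SNORD12B and SNORD12C, SNHG5 on chromosome 6 (chr6:85650491-85678932, minus) holds SNORD50A and SNORD50B, and SNHG6 holds SNORD87. SNHG12 on chromosome 1 (chr1:28578538-28583132, minus) carries both kinds, SNORD99 and 3 H/ACA snoRNAs. The hosts of a single H/ACA snoRNA are DANCR (chr4:52712325-52723623, plus, SNORA26), SNHG8 (chr4:118278703-118285316, plus, SNORA24), SNHG15 (chr7:44983019-44986961, minus, SNORA9) and EPB41L4A-AS1 (chr5:112160526-112164818, plus, SNORA13). A protein-coding gene on the opposite strand overlaps GAS5, ZFAS1, SNHG6, SNHG12, DANCR, SNHG8 and EPB41L4A-AS1 in the GENCODE annotation. The TruSeq RNA kit of the bulk libraries does not mark strand, so for these genes bulk reads of the opposite strand cannot be told apart from their own. On the same strand, SNHG5 overlaps a protein-coding gene and the pseudogene PKMP3, and DANCR overlaps the lncRNA LINC01618. Strand cannot part the reads of these overlaps in either assay.

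The start of each gene was searched for the pyrimidine run that marks ribosomal protein genes. Each window below runs from 30 bases before to 30 bases from the RefSeq start (GRCh38.p14), on the gene's strand, and the capitals mark the longest run that opens with C and goes on with C or T within 20 bases of the start. The RefSeq start is not always the end of the GENCODE gene. The 5 windows shown lie inside the gene, that of SNHG12 furthest from its end, while the window of GAS5 lies wholly outside the position given above. These 5 were picked from the genes with a run of at least 5 bases, ZFAS1, SNHG8 and SNHG12 with a rise described below, SNHG5 with little change and DANCR with a fall.
ZFAS1 (chr20:49278612-49278671): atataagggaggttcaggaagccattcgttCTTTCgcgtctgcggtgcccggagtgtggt
SNHG8 (chr4:118278732-118278791): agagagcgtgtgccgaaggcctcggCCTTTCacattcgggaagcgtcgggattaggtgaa
SNHG12 (chr1:28581844-28581903): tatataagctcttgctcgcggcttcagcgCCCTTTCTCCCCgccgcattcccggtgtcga
SNHG5 (chr6:85678704-85678763): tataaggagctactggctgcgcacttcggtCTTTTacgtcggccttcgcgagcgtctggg
DANCR (chr4:52712364-52712423): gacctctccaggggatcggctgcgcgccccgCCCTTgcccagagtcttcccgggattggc
A run of at least 5 such bases, searched on the gene's own strand alone, was found in 6 of the 8 host genes that have a promoter entry (SNHG6 and SNHG15 have none), beside 47.9% of all 35116 RefSeq promoters and 93.7% of 63 ribosomal protein promoters. A run of at least 7 was found in 1 of the 8, SNHG12, beside 20.2% of all promoters and 84.1% of those of ribosomal proteins. Among 20 other snoRNA host genes, 75% had a run of at least 5 and 35% one of at least 7. The SNHG1 run, 6 bases from position -19, lies wholly before the start, and that of SNHG8 begins at -5. The median run was 5 bases in the host genes, 4 in all promoters and 11 in those of ribosomal proteins. GAS5 and EPB41L4A-AS1 were the 2 of 8 without a run of 5, with longest runs of 2 and 3 bases. Since the GAS5 window does not reach the GENCODE gene, it cannot show whether the RNA of that gene opens with such a run.

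After the limits on genes, UMIs (unique molecular identifiers, 1 per captured RNA molecule) and mitochondrial reads, 48282 of 67056 barcodes were kept, 3894 to 8154 cells per library, with 48186195 to 74185723 UMIs per library. No pair of libraries shared more than 23 barcodes. The epithelial markers, keratins 8 and 18 and EPCAM among them, summed to 9534 to 12239 CPM in early and 8097 to 11189.5 CPM in late libraries. The 5 leukocyte markers summed to 7.56 to 17.4 CPM early and 23.9 to 57.7 CPM late, mostly LYZ and CD68, and 2 of 3 tested were called higher late. The 6 fibroblast and endothelial markers summed to 1.746 to 3.21 CPM early and 2.64 to 4.96 CPM late, and 2 of 4 tested were called higher late. The part of these markers in the results was not tested. Levels are given as CPM, the UMIs of a gene summed over kept cells and scaled to the same total in each library. The least read host gene, SNHG12, still had 993 to 3706 UMIs per library.

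On late days 7 of the 10 host genes rose, led by EPB41L4A-AS1, GAS5, SNHG12 and ZFAS1, and DANCR fell. SNHG5 and SNHG15 moved little. In the scaled counts, 7 of 10 passed the test upwards, beside 29.4% of the 16993 genes tested, and 2 of 10 downwards, beside 28.3%. The median log2 fold change of the 10 was 0.92, beside 0.04 over all genes tested. All 4 late libraries stood above all 4 early ones for 7 host genes, beside 30.1% of genes, and below them for 1, beside 21.9%.

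Among the box C/D hosts, GAS5, the growth-arrest-specific RNA, read 405 CPM in SW620-FLAG on day 6, 517 on day 9, 1478 on day 12 and 2034 on day 15. In SW620-TET2CD it read 434, 508, 1072 and 1631 CPM, in the same order of days that holds for the values below. Every late value lay above every early one. In both lines GAS5 rose a little from day 6 to day 9 and far more from day 9 to day 15. The rise was 1.62 ± 0.20 on the log2 scale (SE, adjusted p = 9.1e-05 by the quasi-likelihood test of edgeR, Benjamini-Hochberg adjustment over all genes tested, 4 against 4 libraries). The mean level went from 466 ± 55.1 CPM (SD, n = 4) to 1554 ± 398 CPM (SD, n = 4).

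For ZFAS1, host of the SNORD12 family, the SW620-FLAG libraries read 827, 887, 2012 and 2598 CPM. The SW620-TET2CD libraries read 841, 948, 1561 and 2170.2 CPM. The early values lay within 827 to 948 CPM, and none reached the lowest late value. The log2 change was 1.13 ± 0.17 (SE, adjusted p = 0.00027, edgeR).

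SNHG6 (chr8:66920561-66926398, minus strand, GRCh38), host of SNORD87, also rose, with 304, 314, 593 and 759 CPM for SW620-FLAG, and 305, 337, 441 and 688 CPM for SW620-TET2CD. Its early and late values did not overlap, its larger step in SW620-TET2CD came between days 12 and 15, and the log2 change was 0.86 ± 0.17 (SE, adjusted p = 0.0015, edgeR). SNHG1, which holds a cluster of box C/D snoRNAs, rose less. SW620-FLAG had 67.5, 61.6, 102 and 135 CPM of it, and SW620-TET2CD 63.3, 59.6, 78.7 and 115 CPM. The lowest late value of SNHG1, that of SW620-TET2CD on day 12, was nearest to the early range, and the log2 change was 0.66 ± 0.16 (SE, adjusted p = 0.0049, edgeR).

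SNHG5, host of both SNORD50 copies, behaved otherwise. Its values were 577, 616, 571 and 466 CPM for SW620-FLAG, 619, 638, 586 and 505 CPM for SW620-TET2CD, and 1 late value, the 586 CPM of SW620-TET2CD on day 12, lay inside the early range. The log2 change was -0.32 ± 0.12 (SE, adjusted p = 0.037, edgeR), and this call was lost under 11 of 20 alternatives, with an adjusted p of 0.29 with upper-quartile scaling and 0.117 with library totals alone. Leaving out any library but SW620-TET2CD on day 12 also ended it (adjusted p 0.061 to 0.089).

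SNHG12, host of SNORD99 and 3 H/ACA snoRNAs, had 18.4, 18.2, 32.4 and 70.1 CPM for SW620-FLAG, against 16.1, 15.0, 32.6 and 48.4 CPM for SW620-TET2CD. Both lines were close on day 12, and SW620-FLAG took its largest step between days 12 and 15. Early and late values did not overlap, and the log2 change was 1.33 ± 0.24 (SE, adjusted p = 0.00084, edgeR).

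Of the H/ACA hosts, EPB41L4A-AS1, which overlaps the EPB41L4A gene on the opposite strand, changed most. SW620-FLAG gave 76.7, 81.1, 344 and 434 CPM, while SW620-TET2CD gave 65.5, 84.6, 235 and 344 CPM. The lowest late value was far above the highest early one, and the log2 change of 2.02 ± 0.17 (SE, adjusted p = 1.6e-05, edgeR) was the highest among the 10. SNHG8, host of SNORA24, had 84.1, 80.2, 186 and 209 CPM for SW620-FLAG, then 83.5, 88.2, 145 and 176 CPM for SW620-TET2CD, without overlap and with a log2 change of 0.97 ± 0.14 (SE, adjusted p = 0.00019, edgeR).

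DANCR, named for its part in keeping progenitor cells undifferentiated, went the other way. SW620-FLAG held 472, 419, 231 and 184 CPM, while SW620-TET2CD held 496, 436, 281 and 170.4 CPM, lower at each step in both lines. All 4 late values lay below all 4 early ones, and the log2 change was -1.18 ± 0.17 (SE, adjusted p = 0.00025, edgeR). SNHG15, a short-lived lncRNA and host of SNORA9, had 126, 102, 95.04 and 108 CPM for SW620-FLAG, with 132, 114, 108 and 109 CPM for SW620-TET2CD. The late values overlapped the early range through the 102 CPM of SW620-FLAG on day 9, and the log2 change of -0.29 ± 0.13 (SE, adjusted p = 0.075, edgeR) did not pass. It passed without SW620-FLAG day 15 (adjusted p = 0.032) or without SW620-FLAG day 9 (adjusted p = 0.049).

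**Figure D1:**
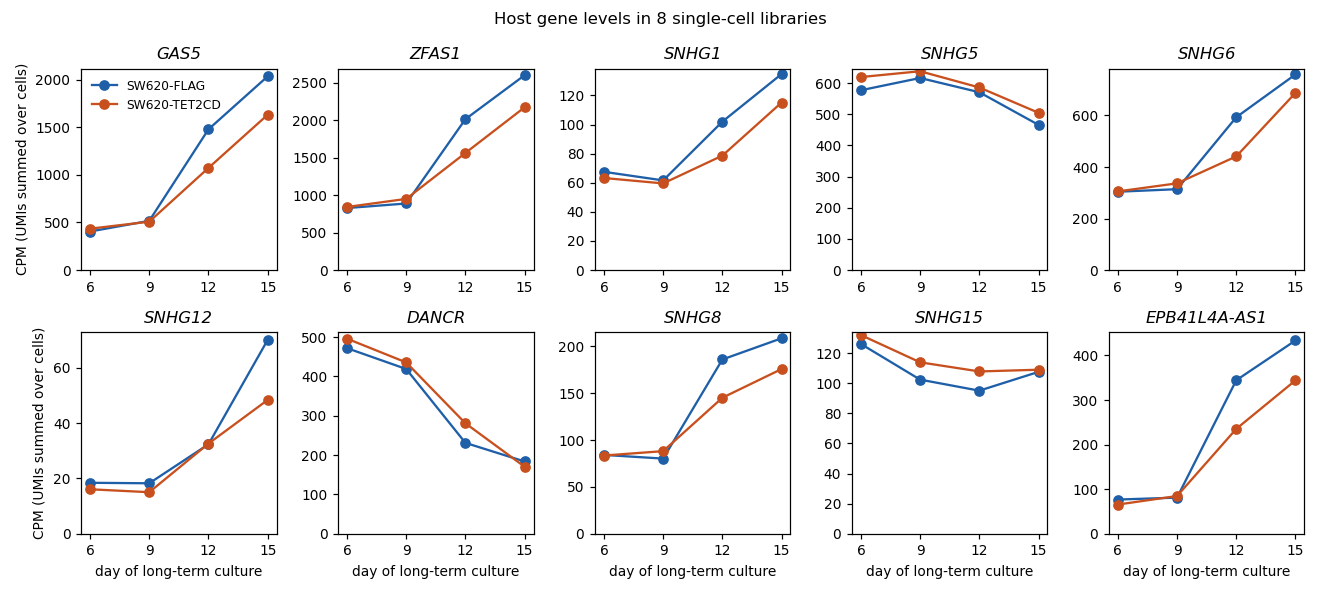
CPM of UMIs summed over cells (y axis, from 0) against day of LTC (x axis) for each of the 10 host genes, 1 point per library, blue for SW620-FLAG and orange for SW620-TET2CD. In SW620-FLAG, GAS5 went from 405 to 2034 CPM between days 6 and 15, DANCR went from 472 to 184 CPM, and SNHG5 and SNHG15 stayed near their early levels.

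Apart from SNHG5 and SNHG15, the calls did not change under any of the 20 alternatives, which moved the log2 change of GAS5 between 1.42 and 2.00 and that of DANCR between -1.57 and -1.01. Upper-quartile scaling shifted the median of all genes from 0.04 to 0.21, and 63.4% of its calls were upward, beside 51.0% with the scaling used here. Late libraries differed from early ones in much else. The 93 S- and G2/M-phase genes summed to 8587 to 9349 CPM on early days and to 2293 to 3364 CPM on late days, and MALAT1, a nuclear lncRNA, stood at 6556 to 9352 CPM and at 20040.4 to 45593 CPM. Their part in the host gene changes was not tested.

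The share of cells with a UMI moved with the levels. After each cell was thinned to 2000 UMIs, GAS5 was seen in 53.2% to 62.2% of cells in the early libraries and in 83.1% to 94.99% in the late ones, without thinning in 93.2% to 97.1% and 98.4% to 99.6%. EPB41L4A-AS1 was seen in 12.4% to 15.9% of thinned cells early and in 35.7% to 55.3% late, and DANCR in 54.0% to 61.4% and in 26.6% to 39.2%. The early and late ranges of these genes did not overlap. The same held for SNHG5 (67.6% to 70.2% early, 55.3% to 66.0% late) and SNHG15 (18.03% to 22.7% early, 16.7% to 17.96% late), whose levels moved little. How many of all genes had ranges without overlap was not counted. Of 48282 cells, the 18 to 89 per library with fewer than 2000 UMIs were left out, and the cultures hold no cell type that should lack these RNAs, so a share from free RNA could not be measured.

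Other genes of the same machinery did not move as one. Of 21 other snoRNA host genes that were tested, 6 rose and 11 fell, with a median log2 change of -0.34. SNHG32 (1.63 ± 0.21, SE, adjusted p = 0.00013, edgeR) and SNHG29 (0.65 ± 0.13, SE, adjusted p = 0.0017) rose among the noncoding ones, and SNHG3 (-0.72 ± 0.12, adjusted p = 0.00058) and SNHG4 (-0.95 ± 0.14, adjusted p = 0.00029) fell. Among the protein-coding hosts, the translation initiation factor EIF4A2 rose by 1.71 ± 0.20 (adjusted p = 6.7e-05), while nucleolin, NCL, changed by -1.33 ± 0.16 (adjusted p = 8.9e-05) and the box C/D protein NOP56 by -1.76 ± 0.17 (adjusted p = 2.9e-05). RACK1, the other host with the highest mean CPM, did not pass (0.15 ± 0.13, SE, adjusted p = 0.35, edgeR), and HSPA8 fell (-0.97 ± 0.11, adjusted p = 6.6e-05). SNHG32, SNHG3, SNHG4, EIF4A2 and NOP56 were chosen for naming after their values had been seen.

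**Figure D2:**
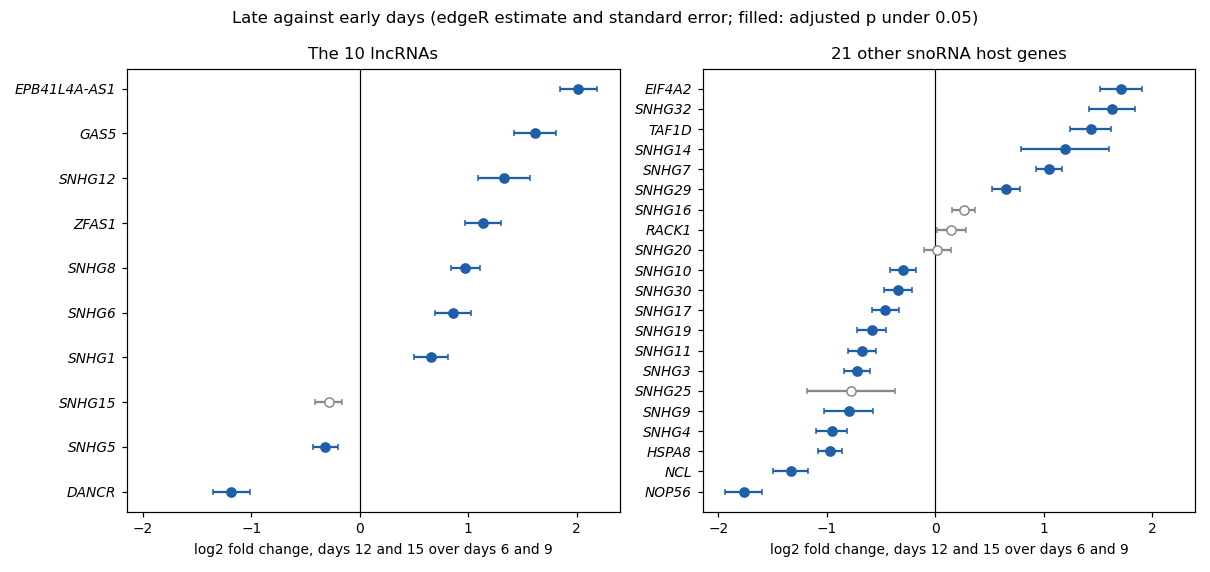
Log2 fold change of days 12 and 15 over days 6 and 9 (x axis) for the 10 lncRNAs (left) and 21 other snoRNA host genes (right), with edgeR's estimate as the point and its standard error as the bar, filled and blue where the adjusted p was under 0.05. EPB41L4A-AS1 stood at 2.02 and DANCR at -1.18, and the other hosts ran from EIF4A2 at 1.71 to NOP56 at -1.76.

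Most mRNAs of the proteins that build the snoRNA particles fell. Of 14 genes for core and assembly proteins, 0 rose and 13 fell, with a median log2 change of -1.01. Fibrillarin, FBL, the methyltransferase of the box C/D particle, had a mean of 274 CPM early and 147 CPM late (log2 change -1.02 ± 0.13, SE, adjusted p = 0.00012, edgeR), and SNU13, which binds the box C/D fold, had 479 and 460.3 CPM and did not pass (adjusted p = 0.29). Of 14 nonsense-mediated decay factors, 0 rose and 8 fell, with a median of -0.51, among them RBM8A, MAGOH and EIF4A3 of the exon junction complex (-0.72, -1.02 and -1.10).

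Ribosomal protein mRNAs, which share the 5′TOP feature, moved little in level. Of 79 tested, 10 rose and 4 fell, with a median log2 change of 0.11. RPS2 (-0.29 ± 0.13, SE, adjusted p = 0.083, edgeR) and RPS3 (0.08 ± 0.13, adjusted p = 0.62) did not pass. Neither did RPL13 (0.18 ± 0.13, adjusted p = 0.24) and RPS18 (0.23 ± 0.12, adjusted p = 0.13). The summed share of ribosomal protein genes in all UMIs was 24.4% to 25.4% early and 27.0% to 30.2% late. Of 14 other 5′TOP translation genes 5 rose and 3 fell, with TPT1, a growth-linked 5′TOP mRNA, at 0.90 ± 0.14 (SE, adjusted p = 0.00046, edgeR) and NPM1, a nucleolar chaperone, at -0.83 ± 0.16 (adjusted p = 0.0015). EEF1A1 (0.28 ± 0.14, adjusted p = 0.10) and EEF1G (0.25 ± 0.13, adjusted p = 0.13) did not pass. The 3 nuclear lncRNAs MALAT1, NEAT1 and KCNQ1OT1 rose by 1.94, 2.06 and 1.63.

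The pattern over the 8 libraries was most alike between GAS5 and ZFAS1 within the 10 (Pearson r = 0.9977 of log2 CPM plus 1), and DANCR ran opposite to SNHG6 (r = -0.9851). Outside the 10, the genes with the highest r were PLD3, SNHG32 and LRP10 for GAS5, EIF4A2, SNHG32 and DDR1 for ZFAS1, SYF2, SLC16A5 and LEMD1 for EPB41L4A-AS1, and EEF2KMT, ALG3 and TXNL4A for DANCR, all from 0.9957 to 0.9989. For SNHG1 they were PPP1R18, CD58 and JAG1, for SNHG6 VAT1, MYRF and REEP3, for SNHG8 SLC16A5, SYF2 and ABHD17C, and for SNHG12 CEBPB, CARD19 and EFHD2, all from 0.9846 to 0.9968. For SNHG5 (SNUPN, UROS, GATD3B, up to 0.9741) and SNHG15 (RAB18, LSM12, MT1X, up to 0.9718) the likeness was lower. These values describe 8 libraries that share lines and days.

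The second question was whether TET2CD shifted the host RNAs. In plain CPM, scaled by library totals, the ratio on days 6 and 9 of SW620-TET2CD to SW620-FLAG lay between 0.823 and 1.11 for all 10 genes. On days 12 and 15 the 7 host genes that rose were lower in SW620-TET2CD in 13 of 14 values, while on early days 7 of 14 were. GAS5 stood at 0.726 times the SW620-FLAG level on day 12 and at 0.802 on day 15, and EPB41L4A-AS1 at 0.683 and 0.794. ZFAS1 stood at 0.776 and 0.835, and SNHG6 at 0.744 and 0.906. SNHG12, at 1.01 on day 12 and 0.690 on day 15, held the 1 value above the SW620-FLAG level. With the TMM factors that the tests use, 14 of 14 late and 9 of 14 early values were lower in SW620-TET2CD. There is 1 pair of libraries per day, and these 7 genes moved alike over the libraries, so the 14 values are not separate observations. The share of all genes with a ratio below 1 was not counted.

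The bulk libraries of day 15 did not show the same direction throughout. Inside the colonies 6 of these 7 genes were higher in SW620-TET2CD than in SW620-FLAG, among them GAS5 (1.24 times), ZFAS1 (1.25 times) and SNHG1 (1.44 times), and outside them 3 of 7 were, GAS5 (1.06 times), SNHG1 (1.05 times) and SNHG12 (1.01 times). These are TPM ratios of single libraries, with no test. In the TMM-scaled counts of the bulk libraries, the same 6 genes were higher in SW620-TET2CD inside the colonies. Outside, by those counts, all 7 were lower in SW620-TET2CD than in SW620-FLAG, GAS5 at 490 beside 501 CPM, SNHG1 at 219 beside 237 and SNHG12 at 24.5 beside 27.1.

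The differences between the lines in the single-cell sums did not pass the tests. Across the 4 days, 0 of 10 host genes were called between the lines, beside 4.32% of 17478 genes. EPB41L4A-AS1 had the largest estimate, -0.37 ± 0.12 on the log2 scale (SE, adjusted p = 0.15, edgeR), followed by SNHG12 (-0.36 ± 0.12, adjusted p = 0.17) and SNHG1 (-0.29 ± 0.11, adjusted p = 0.19). GAS5 was at -0.28 ± 0.14 (adjusted p = 0.40), with a 95% interval from -0.60 to 0.03, and DANCR at -0.03 ± 0.13, from -0.31 to 0.25. With no filter on low counts EPB41L4A-AS1 (adjusted p = 0.028) and SNHG12 (adjusted p = 0.013) passed, and 1489 genes did in place of 755.

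Whether the late change itself differed between the lines was tested as an interaction. The estimates were below 0 for 10 of 10 host genes, with a median of -0.40 beside 0.00085 over all genes, and 0 of 10 passed, as did 0 of 17478 genes (0%). By edgeR 141 genes had an unadjusted p under 0.05, and DESeq2 called 0. GAS5 had -0.55 ± 0.37 (SE, adjusted p = 1.00 for each of the 10, edgeR) with a 95% interval from -1.36 to 0.27, and SNHG8 -0.48 ± 0.25, from -1.04 to 0.08. The signs rested on single libraries for some genes. Without SW620-FLAG day 15 the estimate was 0.51 for SNHG12, 0.040 for SNHG15 and -0.21 for GAS5, and without SW620-TET2CD day 15 it was 0.32 for DANCR and 0.052 for SNHG5. DANCR was also above 0 with upper-quartile scaling, library totals alone, every barcode, no upper limits, or without SW620-FLAG day 9 or 12 or SW620-TET2CD day 6, and SNHG15 without SW620-FLAG day 9 or SW620-TET2CD day 6. In simulated counts of this design 6% of genes given a log2 difference of 1 were recovered, so a difference of the size seen here was not detectable.

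**Figure D3:**
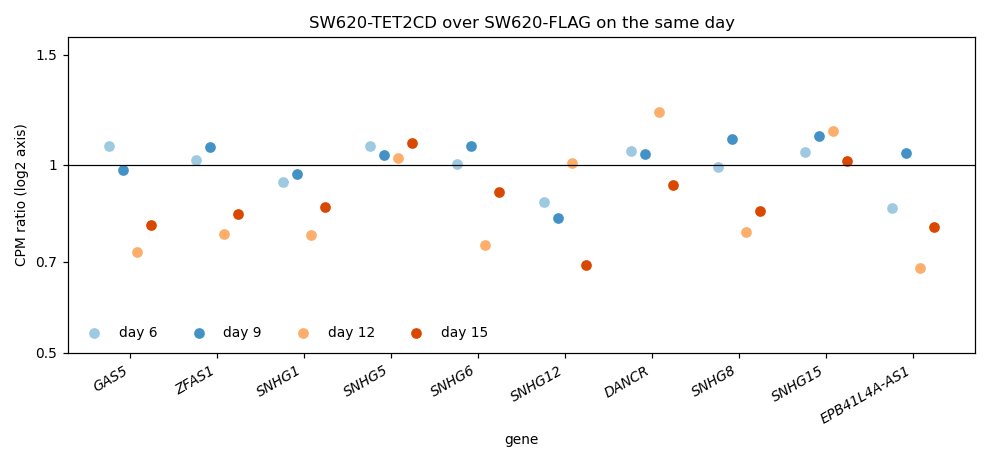
CPM of SW620-TET2CD divided by CPM of SW620-FLAG on the same day (y axis, log2 scale) for each host gene, with blue points for days 6 and 9 and orange points for days 12 and 15, 1 pair of libraries per point. On late days GAS5, ZFAS1, SNHG1, SNHG6, SNHG8 and EPB41L4A-AS1 lay below 1 on both days, and SNHG5 and SNHG15 lay above 1 on all 4 days, though with TMM factors their day-15 ratios were 0.881 and 0.824.

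Since the cycling genes were lower on late days, cells were also compared within each library. The cells of a library were ranked by the share of their UMIs from the 93 S- and G2/M-phase genes, none of them a host gene, and cut into 3 equal groups, of which the top (cycling-high) and the bottom (cycling-low) were summed and compared with the library as a block, 16 sums in all. In cycling-high cells 7 of 10 host genes were lower, beside 23.1% of 15670 genes, and 1 was higher, beside 20.6%. Their median log2 change was -0.25, beside -0.03 over all genes.

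EPB41L4A-AS1 was 0.525 to 0.773 times as high in the cycling-high as in the cycling-low cells of the same library, below 1 in 8 of 8 libraries (log2 change -0.72 ± 0.06, SE, adjusted p = 1.8e-06, edgeR). SNHG8 followed with -0.63 ± 0.06 (adjusted p = 4.9e-06), GAS5 with -0.53 ± 0.05 (adjusted p = 8.2e-06) and ZFAS1 with -0.42 ± 0.06 (adjusted p = 0.00013), each lower in 8 of 8 libraries. Smaller changes were called for DANCR (-0.22 ± 0.06, adjusted p = 0.0083), SNHG6 (-0.21 ± 0.05, adjusted p = 0.0032) and SNHG5 (-0.21 ± 0.04, adjusted p = 0.0011). DANCR missed the threshold with library totals alone (adjusted p = 0.14) and without SW620-FLAG day 9 (adjusted p = 0.057). With cells ranked by the S-phase list alone its log2 change turned to 0.096 (adjusted p = 0.071), and SNHG5 (adjusted p = 0.37) and SNHG6 (adjusted p = 0.26) were not called. Without the library block 0 of 10 host genes were called.

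SNHG15 alone among the 10 was called higher in cycling-high cells, with a ratio of 1.15 to 1.31, above 1 in 8 of 8 libraries (0.19 ± 0.04, SE, adjusted p = 0.0010, edgeR). SNHG1 (-0.08 ± 0.09, adjusted p = 0.51) and SNHG12 (-0.28 ± 0.14, adjusted p = 0.12) did not pass, though SNHG12 did with upper-quartile scaling or without SW620-TET2CD day 6 (adjusted p = 0.047 each). Ribosomal protein genes fell together, 78 of 79 with a median of -0.28, while of the 14 snoRNA particle proteins 10 were higher and 1 was lower, and of the 14 decay factors 11 were higher. The median UMI count was 7093 to 14540 in cycling-high and 5385 to 12628 in cycling-low cells. Among cells with at least 4000 UMIs the same 7 host genes were lower and SNHG15 higher, beside 3286 of 15661 genes lower and 3341 higher. With library totals alone 68.9% of all calls were upward and with upper-quartile scaling 31.4%, beside 47.1% with the scaling used here, and the calls for EPB41L4A-AS1, SNHG8, GAS5, ZFAS1 and SNHG15 held under both.

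The cycling difference was not the same on early and late days, a test added after these ratios had been seen. On early days SNHG1 was 1.08 to 1.32 times and SNHG12 1.02 to 1.32 times as high in cycling-high cells, in 4 of 4 libraries each by plain CPM. On late days SNHG1 was 0.749 to 0.911 times and SNHG12 0.528 to 0.785 times as high, again in 4 of 4. DANCR was lower in cycling-high cells in 4 of 4 early libraries (0.766 to 0.802) and between 0.983 and 1.15 in the late ones. With the TMM factors of the test, SNHG12 was above 1 in 3 of 4 early libraries (0.986 to 1.29), and DANCR ran from 0.862 to 1.09 on late days, above 1 in 1 of 4.

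In the interaction test 6 of 10 host genes were called in either direction, beside 14.1% of 15670 genes. The late-day log2 change differed from the early-day one by -0.59 ± 0.08 for SNHG1 (SE, adjusted p = 0.00060, edgeR), by -0.88 ± 0.12 for SNHG12 (adjusted p = 0.00064), by -0.35 ± 0.05 for ZFAS1 (adjusted p = 0.00064) and by 0.31 ± 0.07 for DANCR (adjusted p = 0.0098). The call for DANCR was lost when cells were ranked by the S-phase list alone or by the G2/M-phase list alone. It was also lost with a mitochondrial limit of 20% and without SW620-TET2CD day 15. On late days the cycling-high cells of most libraries held few cycling UMIs, with a median share of 0.239% to 0.514%, beside 1.23% to 1.29% in the early cycling-high and 0.270% to 0.530% in the early cycling-low cells. The late cycling-high cells thus had about the cycling share of the early cycling-low ones, the name holds only within a library, and the 2 contrasts are of unequal size and cover different ranges of the score. The median mitochondrial share of cycling-high cells was below that of cycling-low cells in 4 of 4 early libraries (3.76% to 7.42% beside 4.48% to 8.36%) and above it in 4 of 4 late ones (5.39% to 7.17% beside 5.10% to 6.59%), and its part in the change was not tested. Of 79 ribosomal protein genes 43 were called in the same direction as ZFAS1.

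Within the cycling-low cells alone, the same 7 host genes rose on late days and DANCR fell. Of 14637 genes tested there, 3798 were called higher on late days and 3761 lower. Those cells were not matched in cycling, with a median share of 0.270% to 0.530% early and 0.0979% to 0.118% late, so the early and late cells compared still differed in it. EPB41L4A-AS1 stood at 1.95 ± 0.17 (SE, adjusted p = 1.2e-05, edgeR), SNHG12 at 1.90 ± 0.20 (adjusted p = 3.5e-05), GAS5 at 1.70 ± 0.19 (adjusted p = 4.6e-05) and DANCR at -1.23 ± 0.16 (adjusted p = 0.00011). SNHG1 was at 1.16 ± 0.17 (adjusted p = 0.00020), beside 0.66 in all cells. SNHG5 (-0.14 ± 0.12, adjusted p = 0.37) did not pass there.

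**Figure D4:**
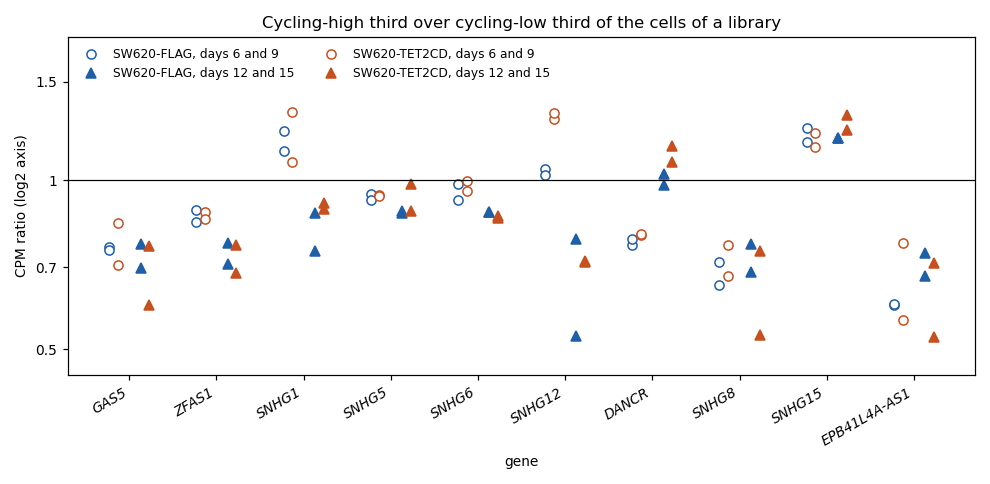
CPM in the cycling-high cells divided by CPM in the cycling-low cells of the same library (y axis, log2 scale) for each host gene, open circles for days 6 and 9 and filled triangles for days 12 and 15, blue for SW620-FLAG and orange for SW620-TET2CD, 1 point per library. Scaled by library totals, SNHG1 and SNHG12 lay above 1 on early days and below 1 on late days (with TMM factors SNHG12 was at 0.986 in SW620-FLAG on day 9), SNHG15 lay above 1 in 8 of 8 libraries, and EPB41L4A-AS1 lay between 0.525 and 0.773.

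The bulk libraries give the same RNAs by another method, in TPM, which scales reads for transcript length and depth. In bulk, fewer cells with a gene and less RNA per cell cannot be told apart. On this scale the order in SW620 on day 6 was SNHG5 (543 TPM), GAS5 (380.5), SNHG6 (345), ZFAS1 (322), DANCR (221), SNHG1 (152), SNHG15 (79.7), SNHG8 (77.2), EPB41L4A-AS1 (57.6) and SNHG12 (26.6). With 1 library the error of this order could not be estimated, so close neighbours cannot be ranked.

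GAS5 stood at 380.5 TPM in SW620 on day 6, at 1177 TPM inside and 1352 TPM outside the colonies of SW620-FLAG on day 15, and at 1463 TPM inside and 1429 TPM outside those of SW620-TET2CD. ZFAS1 stood at 322 TPM on day 6, and at 722, 798, 899 and 766 TPM in the same order on day 15. EPB41L4A-AS1 stood at 57.6 TPM, and at 138, 136, 178 and 114 TPM.

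Against SW620 on day 6, both SW620-FLAG day-15 libraries were at least 2-fold higher for 3 of the 10, GAS5 (3.09 and 3.55 times), ZFAS1 (2.24 and 2.48 times) and EPB41L4A-AS1 (2.39 and 2.36 times), beside 5.37% of 15418 genes with a mean of at least 1 TPM. SNHG8 was 1.79 and 1.98 times, SNHG12 1.38 and 1.49 times, SNHG6 1.397 and 1.325 times and SNHG1 1.28 and 1.44 times as high. DANCR was the 1 host gene lower in both, at 0.768 and 0.843 times. SNHG5 (1.13 and 1.25 times) and SNHG15 (1.12 and 1.07 times) were near their day-6 level in SW620-FLAG, though SNHG5 was called lower in the single-cell sums. These are ratios of single libraries, with no replicate check. In SW620-TET2CD on day 15, SNHG15 read 153 TPM inside and 97.8 TPM outside the colonies, beside 79.7 TPM in SW620 on day 6.

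No difference by location passed the test. By TPM, 3 of the 10 were lower outside than inside in SW620-FLAG and 9 in SW620-TET2CD. EPB41L4A-AS1 and SNHG15 were lowest in SW620-TET2CD, at 0.640 times the inside level each. These are ratios of single libraries, and the share of all genes with a ratio below 1 was not counted. In the TMM-scaled counts that the test uses, SNHG5 was also lower outside in SW620-TET2CD, at 214 CPM beside 224 inside. In the test of outside against inside with the line as a block, 0 of 10 were called, as were 0 of 17722 genes (0%), with 1068 genes at an unadjusted p under 0.05 with edgeR, and DESeq2 called 21. SNHG15 had the largest estimate, -0.34 ± 0.18 on the log2 scale (SE, adjusted p = 0.78, edgeR) with a 95% interval from -0.79 to 0.11, and GAS5 had 0.05 ± 0.14, from -0.30 to 0.40. By TMM-scaled counts SNHG15 differed by location mainly in SW620-TET2CD, with 138 CPM inside and 87.2 outside. In SW620-FLAG it read 91.3 and 90.7 CPM. With 4 libraries and 1 residual degree of freedom, 61% of genes given a log2 change of 1 were recovered in simulated counts.

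SW480, the line from the primary tumour, was compared with SW620 on day 6 by size alone. None of the 10 differed by 2-fold, 0 beside 32.0% of 15888 genes, and 8 of 10 were lower in SW480. SNHG6 stood at 191 TPM in SW480 and 345 TPM in SW620, and EPB41L4A-AS1 at 31.7 and 57.6 TPM, the lowest ratios at 0.552 and 0.550. SNHG8, at 118 and 77.2 TPM, and DANCR, at 247 and 221 TPM, were the higher ones in SW480.

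**Figure D5:**
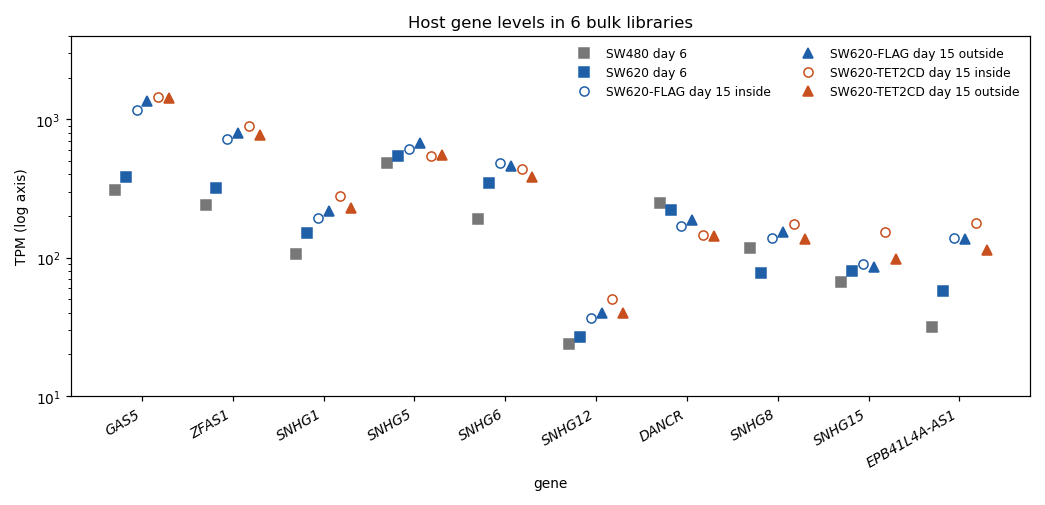
TPM (y axis, log scale) of each host gene in the 6 bulk libraries, squares for day 6 (grey SW480, blue SW620), circles for cells inside and triangles for cells outside the colonies on day 15 (blue SW620-FLAG, orange SW620-TET2CD), 1 library per point. All 4 day-15 values of GAS5 lay between 1177 and 1463 TPM, above both day-6 values, and all 4 of DANCR lay below its day-6 values.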

How the data were processed

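Single-cell RNA-seq (8 libraries) and bulk RNA-seq (6 libraries) were analysed from deposited tables. The authors deposited UMI counts per gene and barcode from Cell Ranger 4.0 against GRCh38, and, for bulk RNA-seq, RSEM expected counts and TPM per gene made with Bowtie. For the bulk libraries the submitters' notes name the mouse build mm10, although all 60624 gene identifiers are human, and the build is therefore uncertain. Reads were not aligned again.

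The study's limits were applied to each barcode (200 to 4500 genes, 1000 to 20000 UMIs, mitochondrial share up to 10%). More cells were kept than the paper reports after its quality control, so the study's cell set was not reproduced. No doublet caller was run, and an alternative dropped the top 8% of cells by UMI count. UMI counts were summed over cells per library, since cells are not replicates, and expected counts were rounded. Expected counts summed to 16470176 to 25840563 per bulk library. Intervals cover counting error or the spread between libraries only.

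Tests used edgeR 4.0.16 (filterByExpr, TMM, quasi-likelihood, two-sided) in R 4.3.3 with Benjamini-Hochberg adjusted p under 0.05 as the call. Late against early days had the line as a block, TET2CD against FLAG the day, outside against inside the line, and cycling-high against cycling-low the library. Alternatives were DESeq2 1.42.0, no filter on low counts, other scalings, other cell limits, no block, other cycling splits and each library left out. The cycling effect by day and the repeat within cycling-low cells were added after the data had been seen. In simulated counts 77% of genes given a log2 change of 1 were recovered for late against early days, 87% between the lines and 95% for cycling. All 10 host genes were described, and likeness took genes with at least 20 CPM. Genes named from a list were among its 4 with the highest mean CPM, and not all 4 were always given. The other snoRNA hosts chosen after their values had been seen are the exception. The host genes and the lists were chosen with earlier results of these data known.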

Additional observations from a re-analysis of the deposited data

Results flagged for a closer look

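The difference between cycling-high and cycling-low cells changed between early and late days for 6 of 10 host genes, beside 14.1% of 15670 genes. This was a test of the interaction itself (edgeR, log2 scale, late-day minus early-day change), added after the ratios had been seen. The values were -0.88 for SNHG12 (adjusted p = 0.00064), -0.59 for SNHG1 (adjusted p = 0.00060), -0.35 for ZFAS1 (adjusted p = 0.00064), -0.26 for SNHG6 (adjusted p = 0.0062), -0.23 for GAS5 (adjusted p = 0.048) and 0.31 for DANCR (adjusted p = 0.0098). In the same test 43 of 79 ribosomal protein genes were called below 0. By plain CPM the ratios of SNHG1 and SNHG12 were above 1 in 4 of 4 early libraries (SNHG12 in 3 of 4 with TMM factors) and below 1 in 4 of 4 late ones. The late cycling-high cells had a median cycling share of 0.239% to 0.514%, near that of the early cycling-low cells (0.270% to 0.530%), so the early and late ratios compare different ranges of the score. ZFAS1, SNHG6 and GAS5 were lower in cycling-high cells on all days, with mean ratios in plain CPM of 0.865, 0.965 and 0.762 early and 0.733, 0.870 and 0.705 late. The calls for SNHG1, SNHG12 and ZFAS1 held under 18 of 18 alternatives, those for SNHG6 and DANCR under 14 and that for GAS5 under 7.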

How the results depend on the processing

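The rise of 7 host genes and the fall of DANCR on late days kept direction and threshold under all 20 alternatives. The number of host genes called moved to 2 between the lines with no filter on low counts (0 otherwise), and for cycling-high against cycling-low cells to 0 with no library block and to 5 with the S-phase list alone (7 to 9 otherwise, 8 as reported), under which the log2 change of DANCR turned to 0.096. For the cycling effect by day, the number called lay between 3 and 7 with 1 library left out, the lowest without SW620-TET2CD on day 15, where DANCR and SNHG6 (adjusted p = 0.060 each) and GAS5 (adjusted p = 0.074) were lost. DANCR was also lost with the S-phase list alone, the G2/M-phase list alone or a mitochondrial limit of 20%. SNHG6 was also lost without SW620-FLAG on day 12 (adjusted p = 0.054) or SW620-TET2CD on day 9 (adjusted p = 0.060), and GAS5 without any library but SW620-FLAG on day 15 or SW620-TET2CD on day 12. The causes were not tested.

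Over all genes, calls between the lines went from 755 to 1489 with no filter, to 46 with no day block and to 440 without SW620-FLAG on day 9. Those between outside and inside went from 0 to 472 and those of the late effect by line from 0 to 15 with no filter. Cycling calls went from 6841 to 327 with no library block. Cycling effect by day gave 2216 calls, DESeq2 1021, and 1023 to 2895 with 1 library left out, and 56.3% of its calls were upward, beside 83.3% with upper-quartile scaling and 88.4% with library totals alone. Library totals alone shifted the median of all genes to 0.15 for late days, 0.10 between the lines and 0.15 for the cycling effect by day. In simulated counts 6% of genes given a log2 difference of 1 were recovered for the late effect by line and 61% for outside against inside, so differences of this size could be missed there.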
